A study of Bos taurus with 12 samples.

Results

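A set of 287 transcripts, out of 38030 in the deposited tables, was abundant in single bovine MII oocytes and nearly missing from cumulus cells. A transcript was included when it reached 100 TPM (a level scaled for transcript length and for the total of the library) in at least 5 of the 6 oocyte libraries and when its median over the 6 cumulus libraries was at most 2% of its median over the 6 oocyte libraries. The members were therefore chosen on measured levels in oocytes and cumulus cells, and their abundance in the former and scarcity in the latter are given as a description without a test. The rule made no use of the L and M/G groups. Another 756 transcripts met the oocyte minimum but exceeded the cumulus limit, and they serve below as the comparison for spread and length, since both sets passed the same oocyte minimum.

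The libraries came from lactating multiparous dairy cows fed a common ration, synchronized with the same Double Ovsynch program and sampled by ovum pickup (OPU) from 1 follicle. Cows of the L group had lost body condition between calving and 27 to 33 d in milk, and cows of the M/G group had maintained or gained it. Each group had 3 oocyte and 3 cumulus libraries, from 9 cows in all, of which 3 gave both cell types. Each oocyte library held the RNA of 1 MII oocyte whose zona pellucida had been removed, and was made with a low-input kit that includes rRNA depletion, while the cumulus libraries, from the cells around an oocyte, were made with a different kit of the same maker. The kit and the cell type cannot be told apart in any comparison of oocytes with cumulus cells, and in such bulk samples fewer cells of a type and less RNA per cell cannot be told apart. The group was read from the sample titles. The condition field of the same records names the opposite group for all 12 libraries, whereas the study's own list of cows places each library's animal in the group that the title gives.

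An oocyte makes and stores most of its mRNA while it grows, and a fully grown oocyte stops transcription before it resumes meiosis. An MII oocyte therefore carries a stock of maternal transcripts, many of them held for translation during maturation or after fertilization, and others being degraded. Cumulus cells are the somatic cells that surround the oocyte, feed it through fine projections and gap junctions and expand before ovulation. The deposited tables name Ensembl transcripts only and do not pair them with genes, and the gene table used here matched 0 of their identifiers. The members are therefore named by transcript identifier, their functions are not given, the label of each library could not be checked against oocyte or cumulus marker genes, and several members may belong to the same gene.

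Oocyte libraries held 8073221 to 31810285 estimated counts and cumulus libraries 6397423 to 11879885. The oocyte library with the lowest total was M/G 1. In that library 13369 transcripts had more than 3 counts, against 16823 to 20027 in the other 5 oocytes, and a single transcript of 201 nt, ENSBTAT00000060553.1, which is not in the set, took 47.8% of all TPM. The 10 highest transcripts together took 70.8% of TPM in M/G 1 and 15.0 to 19.6% in the other oocytes. ENSBTAT00000060553.1 was also the highest transcript of the L 2, L 3 and M/G 2 oocytes, at 4.13 to 8.37% of TPM. It was the highest in all 6 cumulus libraries too, at 15.1 to 38.9%. The 10 highest took 33.9 to 73.7% of TPM in the cumulus libraries. The summed share, the levels, the spread and the fold changes are given below with and without the M/G 1 oocyte.

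The 287 transcripts made up 17.4, 11.6 and 17.3% of all TPM in the L 1, L 2 and L 3 oocytes. In the M/G oocytes they made up 1.03, 13.2 and 17.8% in replicates 1 to 3. The M/G 1 oocyte thus stood far below the other 5, which lay within a range of 11.6 to 17.8%. In cumulus cells the same transcripts made up 0.104, 0.233 and 0.0661% of TPM in L 1 to L 3 and 0.0795, 0.153 and 0.160% in M/G 1 to M/G 3. The dominant transcripts lower these cumulus shares. Their median was 0.128%, and 0.257% when TPM was rescaled without the 10 highest transcripts of each library. As a share of estimated counts, which favors long transcripts, the set took 9.88 to 13.3% of the 5 oocytes, 1.83% of the M/G 1 oocyte and 0.0723 to 0.209% of the cumulus libraries.

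**Figure D1:**
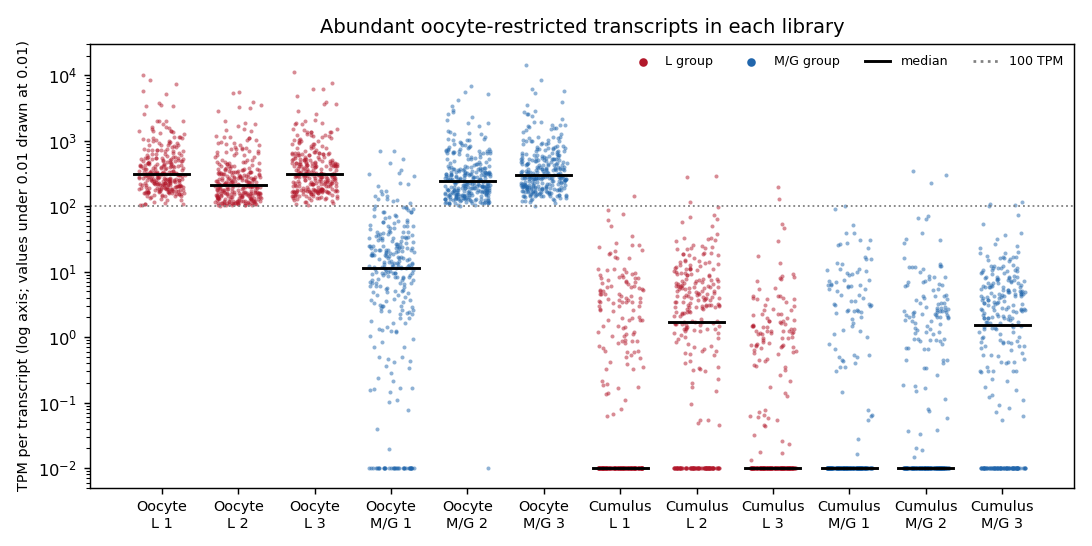
Level of each of the 287 transcripts in each of the 12 libraries, in TPM on a log axis, with L libraries in red and M/G libraries in blue. Points are transcripts, bars are medians, and values under 0.01 TPM are drawn at 0.01. The medians of 5 oocytes lie between 210 and 310 TPM, that of the M/G 1 oocyte at 11.5 TPM, and those of the cumulus libraries at 0 or, in L 2 and M/G 3, at 1.69 and 1.51 TPM.

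Only 20 of the 287 reached 100 TPM in all 6 oocytes. Of the other 267, the M/G 1 oocyte was the library that fell short for 266, and M/G 2 for 1, ENSBTAT00000030222.5. The rule lets 1 library fall short, so membership was in effect decided by the other 5 oocytes for nearly every transcript. Near the limits, the lowest member by its fifth-highest oocyte value was ENSBTAT00000025762.3 at 101 TPM, followed by ENSBTAT00000022568.6 at 102 TPM. Just outside were ENSBTAT00000076411.1 at 99.1 TPM and ENSBTAT00000074554.1 at 98.5 TPM. On the side of the cumulus limit, ENSBTAT00000081792.1 and ENSBTAT00000065404.2 were the last members, with cumulus medians of 1.97 and 1.95% of the oocyte median, and ENSBTAT00000014187.5 and ENSBTAT00000010872.5 fell outside at 2.02 and 2.03%.

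The median level over the 6 oocytes ran from 111 to 8567 TPM across the set, with a median of 252 TPM and an interquartile range of 177 to 439 TPM. The distribution was steep at the top. There were 182 transcripts above 200 TPM, 62 above 500 TPM, 26 above 1000 TPM, 10 above 2000 TPM and 3 above 5000 TPM, and the 10 highest accounted for 29.9% of the summed medians. Without the M/G 1 oocyte the medians ran from 112 to 10204 TPM with a median of 274 TPM, 29 transcripts were above 1000 TPM and 10 above 2000 TPM, and the 10 highest were the same transcripts. The 756 comparison transcripts had a median of 212 TPM.

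The most abundant member was ENSBTAT00000046026.3, a transcript of 381 nt. Its level was 10204, 5538 and 11086 TPM in the L oocytes and 168, 6929 and 14354 TPM in the M/G oocytes. L and M/G values overlapped, with the lowest value after M/G 1 in L 2 and the highest in M/G 3. It was also the only member with at least 10 TPM in every cumulus library, at 21.3, 98.5 and 13.5 TPM in the L group and 30.4, 31.6 and 73.0 TPM in the M/G group. The ratio of the oocyte to the cumulus median was 276.

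The second member by level, ENSBTAT00000048647.3 (669 nt), had no count in any cumulus library. In oocytes it stood at 8323, 5341 and 7677 TPM in the L group and at 702, 5523 and 8408 TPM in the M/G group, so that M/G 1 was far below the other 5, which overlapped between the groups. Set against the level that 3 counts would give in the least sensitive cumulus library, the oocyte median was at least 6864-fold higher. Such a floor allows for counting error and for nothing else. The 702 TPM were also the highest value of any member in the M/G 1 oocyte.

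ENSBTAT00000080361.1 (330 nt) followed with 7428, 3298 and 6198 TPM in the L oocytes and 82.2, 5144 and 6075 TPM in the M/G oocytes. It never passed 3 counts in a cumulus library, so that its oocyte median was at least 1626-fold higher. The largest such bound belonged to a longer transcript, ENSBTAT00000015998.5 (1794 nt), for which a count of 3 is a lower level. Its oocyte values were 3349, 1809 and 3654 TPM in the L group and 21.6, 2338 and 2842 TPM in the M/G group, and its oocyte median was at least 9141-fold above the cumulus floor. ENSBTAT00000044590.4 (1942 nt) was the tenth by level, at 2557, 1875 and 2534 TPM in L and 23.2, 1863 and 2758 TPM in M/G oocytes. In all of these, L 2 and M/G 2 were the lowest oocytes after M/G 1.

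The remaining 5 of the 10 most abundant members were short. ENSBTAT00000045443.3 (270 nt) ranged from 2712 to 6144 TPM over the 5 oocytes other than M/G 1, and ENSBTAT00000053587.3 (273 nt) from 3131 to 5715 TPM. ENSBTAT00000033975.4 (372 nt) ranged from 2536 to 3850 TPM, and ENSBTAT00000072717.1 (312 nt) from 2027 to 3879 TPM. ENSBTAT00000074478.1 (225 nt) ranged from 1652 to 3595 TPM. In M/G 1 these 5 stood between 67.0 and 318 TPM.

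TPM and counts ordered the members differently. The tables divide each count by an effective length, which in every oocyte library was the length minus 199 nt for nearly all transcripts, and was only 13.2 to 95.0 nt for members of at most 300 nt. A few reads on a very short transcript thus give a high TPM. The shortest member, ENSBTAT00000083483.1 (189 nt), reached 238 TPM in the L 1 oocyte from 67.1 counts. The longest, ENSBTAT00000033913.5 (10722 nt), reached 389 TPM in the same oocyte from 87457 counts, more than the 83601 counts behind the 8323 TPM of ENSBTAT00000048647.3. Of the 10 members highest in TPM, 7 were at most 400 nt long and their median length was 351 nt, while the 10 highest in counts had a median length of 2812 nt, and 3 transcripts were in both lists.

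Over the whole set the median length was 1518 nt, with an interquartile range of 780.5 to 2614 nt and limits of 189 and 10722 nt. The comparison transcripts had a similar median of 1450.5 nt, all transcripts in the tables one of 2013 nt, and the transcripts expressed in oocytes (those with an FPKM, another level scaled for length and depth, over 1 in at least 1 oocyte) one of 2121 nt. Short transcripts of at most 300 nt made up 6.62% of the set (19 members), 7.01% of the comparison transcripts and 1.77% of the expressed transcripts. At the other end, transcripts over 5000 nt made up 3.48% of the set (10 members), 1.72% of the comparison transcripts and 8.06% of the expressed transcripts. The share of short transcripts was thus near that of other abundant oocyte transcripts. Within the set, the 50 members with the highest level had a median length of 812.5 nt and the other 237 one of 1626 nt, and Spearman's rho between length and the level in the 5 oocytes other than M/G 1 was -0.24 over the 287 transcripts. For the 756 comparison transcripts rho was -0.32. These are correlations across transcripts, which share libraries and the length correction and are not replicates.

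The spread between single oocytes was measured by the coefficient of variation (CV) of TPM. Over the 5 oocytes other than M/G 1 the median CV of the set was 22.6%, with an interquartile range of 19.0 to 28.6%, and with M/G 1 it was 52.5%. The comparison transcripts had medians of 21.3 and 47.6%. The requirement of 100 TPM cuts off low values in both sets, so the CV of members near that minimum is limited by the rule.

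The same oocytes were high or low for many of the members. In ratio to the median of the other 5 oocytes, the members' median was 0.40 higher on the log2(TPM + 1) scale in L 1, 0.31 higher in L 3 and 0.34 higher in M/G 3. In L 2 and M/G 2 the median log2 ratio was -0.43 and -0.21. With M/G 1 left out of the reference these medians were 0.23, 0.19 and 0.17 in L 1, L 3 and M/G 3 and -0.52 and -0.29 in L 2 and M/G 2. The comparison transcripts had median log2 ratios to the other 5 oocytes of the same sign, at 0.26, 0.15 and 0.25 in L 1, L 3 and M/G 3 and -0.22 and -0.06 in L 2 and M/G 2. Leaving out M/G 1, the L 2 oocyte was the lowest for 183 of the 287 members and M/G 2 for 75, and L 1, M/G 3 and L 3 were the highest for 92, 85 and 83. L 2 and M/G 2 were also the oocytes with the lowest total counts after M/G 1, at 17970492 and 23205042, and the part of depth in this order was not tested. When each library was scaled to the summed TPM of the set, which by itself tends to lower the spread within it, the median CV was 15.1%. The comparison transcripts, scaled to their own sum, had a median CV of 25.0%, but over the same 5 oocytes that sum was highest in L 2 and M/G 2, where their median ratio was lowest, so both values are descriptions and were not compared.

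The order of the members was much the same in these 5 oocytes. Spearman's rho between pairs of oocytes over the 287 transcripts lay between 0.796 and 0.923, and over the comparison transcripts between 0.654 and 0.849. The pairs that include M/G 1 had rho values of 0.356 to 0.393 for the set. All pairs share the annotation and its length correction, which also order transcripts alike.

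The smallest CV belonged to ENSBTAT00000076761.1 (876 nt), at 110, 120 and 104 TPM in the L oocytes and 115 and 113 TPM in M/G 2 and M/G 3, a CV of 5.28%. This member lies close to the 100 TPM minimum, and it was at 0 in M/G 1. The next was ENSBTAT00000019450.5 (951 nt), with 308, 272 and 303 TPM in L and 276 and 285 TPM in M/G 2 and M/G 3, a CV of 5.54%, and it was also at 0 in M/G 1. ENSBTAT00000017085.6 (3302 nt) stood at 305, 257 and 282 TPM in L, at 273 and 268 TPM in M/G 2 and M/G 3 and at 35.2 TPM in M/G 1. These members, the most even of the set over 5 oocytes, were thus at 0 or at 12.9% of that level in M/G 1.

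The largest CV belonged to the shortest member, ENSBTAT00000083483.1, at 238, 749 and 117 TPM in L and 0, 174 and 242 TPM in M/G oocytes. These values rest on 67.1, 139, 31.6, 0, 40.4 and 62.0 counts, and its CV was 83.6%. ENSBTAT00000071853.1 (414 nt) had a CV of 75.5%, from 113 TPM in L 2 to 734 TPM in M/G 3. ENSBTAT00000030222.5 (195 nt) had one of 70.3%, with 375, 1110 and 830 TPM in L and 463, 0 and 758 TPM in M/G oocytes, and it was the only member that was at 0 in a library other than M/G 1.

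Across the set, 94 members had a CV under 20% and 14 one over 50%. The 14 had a median length of 291 nt, and 11 of them were at most 600 nt long. Members of at most 300 nt had a median CV of 37.0% and the 268 longer ones one of 22.2%.

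**Figure D2:**
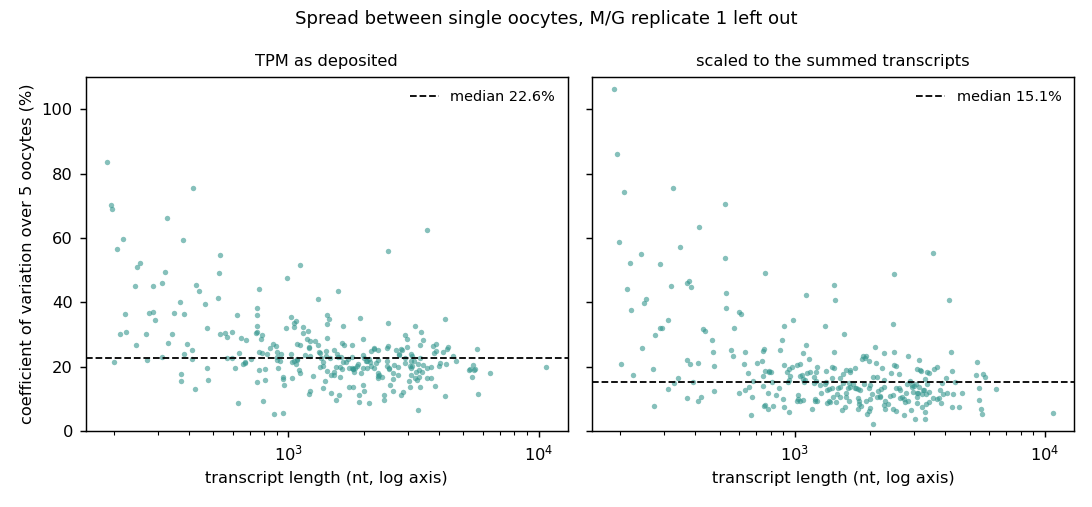
CV of each of the 287 transcripts over the 5 oocytes other than M/G 1 (vertical axis, percent) against transcript length (horizontal, nt, log axis), from TPM as deposited (left) and after each library was scaled to the summed TPM of the set (right). Points are transcripts and the dashed lines are medians, 22.6 and 15.1%. Of the 14 transcripts with a CV over 50% in the left panel, 11 are at most 600 nt long.

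In the M/G 1 oocyte the set was nearly lost. The median member stood at 2.99% of its median over the other 5 oocytes, with an interquartile range of 0.537 to 8.63%. The M/G 1 value was the lowest of 6 for 281 of the 287 members. The comparison transcripts stood at a median of 13.8%, and the 19186 expressed transcripts with a median above 0 in the other 5 oocytes at a median of 7.01%. In sum, however, the comparison transcripts took 83.3% of TPM in M/G 1, against 38.2 to 44.1% in the other 5. Of the 756, 72 stood above their level in the other 5. Because the rule itself uses the M/G 1 value, and because 1 oocyte has no replicate, these figures carry no test.

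The depth of the loss differed between members. There were 86 members (30.0%) below 1% of the level in the other 5 oocytes, 221 (77.0%) below 10% and 282 (98.3%) below 50%. Among the comparison transcripts the corresponding numbers were 53 (7.01%), 287 (38.0%) and 616 (81.5%). In M/G 1, 35 members were at 0 and 51 had at most 3 counts. On the log2(TPM + 1) scale the median ratio of M/G 1 to the other 5 was -4.95 for the set and -2.81 for the comparison transcripts.

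The size of this ratio depended on the scaling. Without the single highest transcript of each library the median log2 ratio of the set was -4.13, without the 10 highest it was -3.49, as a share of estimated counts it was -3.35, and as CPM (counts scaled to the library total) with TMM factors, which center most transcripts between libraries, it was -3.07. The comparison transcripts gave -1.97, -1.31, -1.40 and -1.03 in the same order. With TPM and under each of these scalings the set lay lower in M/G 1 than the comparison transcripts did, with a difference of -1.95 to -2.17 on the log2 scale. Leaving out the highest transcripts thus made the ratio less negative in both sets. The part of depth and of the dominant transcripts in the loss, and in this difference, was not tested further.

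**Figure D3:**
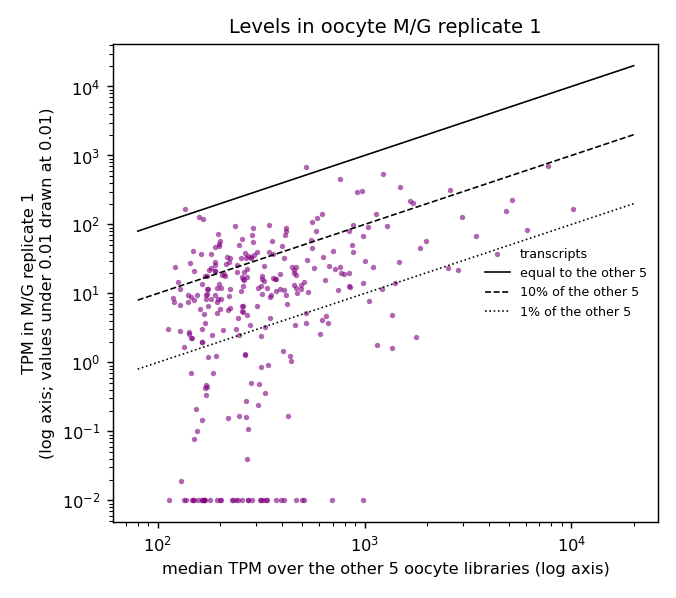
TPM of each of the 287 transcripts in the M/G 1 oocyte (vertical, log axis, values under 0.01 drawn at 0.01) against the median TPM over the other 5 oocyte libraries (horizontal, log axis). Points are transcripts, and the lines mark equal levels, 10% and 1%. There are 221 transcripts below the 10% line, 35 at 0, and 2 above the line of equal levels.

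Among the 35 members at 0 in M/G 1, the 3 with the highest median over all 6 oocytes are given here. ENSBTAT00000039223.3 (806 nt) had 1157, 954 and 1155 TPM in the L oocytes and 690 and 985 TPM in M/G 2 and M/G 3, from at least 7370 counts in each. ENSBTAT00000036982.4 (1659 nt) had 660, 475 and 773 TPM in L and 699 and 878 TPM in M/G 2 and M/G 3, and no count in any cumulus library. Levels of this size were thus replaced by no count at all, in a library of 8073221 counts. ENSBTAT00000064003.2 (321 nt) had 597, 460 and 771 TPM in L and 113 and 500 TPM in M/G 2 and M/G 3. It was detected in the M/G 1 cumulus library at 100.4 TPM, which is a library of another cow.

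A few members kept their TPM. ENSBTAT00000009600.5 (384 nt) stood at 686 TPM in M/G 1, 132% of the other 5, which had 461, 760, 451, 671 and 521 TPM. Its cumulus values were 0, 291 and 128 TPM in the L libraries and 0, 6.96 and 0 TPM in the M/G libraries. ENSBTAT00000028781.5 (526 nt) stood at 170 TPM, or 126%, against 113, 329, 135, 131 and 189 TPM. ENSBTAT00000005143.5 (525 nt) stood at 130 TPM, or 81.6%, against 161, 157, 159, 296 and 101 TPM. For all 3 the TPM in M/G 1 lay within the range of the other oocytes. In CPM with TMM factors, however, M/G 1 was the highest of the 6 oocytes for each, at 303 against 55.6 to 106 for ENSBTAT00000009600.5, at 133 against 24.2 to 81.4 for ENSBTAT00000028781.5 and at 101 against 21.9 to 68.4 for ENSBTAT00000005143.5.

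The 21 members at 100 TPM or more in M/G 1 were short and abundant. Their median length was 381 nt, their median level in the other 5 oocytes was 1138 TPM, and they stood at a median of 20.8% of it. The other 266 members had a median length of 1588.5 nt and a median level of 268 TPM. Over the whole set, however, the log2 ratio in M/G 1 was nearly unrelated to level (rho -0.065 over 287 transcripts) and to length (rho 0.015), and rho with the ratio of the cumulus to the oocyte median was 0.27. Both of the ratios behind the last value are divided by an oocyte median and the rule limits the second, so a positive value is in part built in. The 2 longest members, ENSBTAT00000033913.5 and ENSBTAT00000001190.6 (6398 nt), stood at 4.87 and 4.35%, near the middle of the set. The minimum of 100 TPM in M/G 1 itself selects for a high level elsewhere.

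The L and M/G groups were compared to see whether body condition loss moved these oocyte transcripts. The set made up 15.4 ± 3.32% of TPM in L oocytes and 10.7 ± 8.68% in M/G oocytes (mean ± SD, n = 3 each). Without the M/G 1 oocyte the M/G value was 15.5 ± 3.31% (n = 2). The ranges of the groups overlapped with and without that oocyte.

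No member was called between L and M/G oocytes. With edgeR's quasi-likelihood test, adjusted by Benjamini-Hochberg over the 23686 expressed transcripts, 0 of the 287 had an adjusted p under 0.05, as did 0 of all transcripts tested (0% in each direction). At an unadjusted p under 0.05 there were 0 members higher and 0 lower in L, where 0.777% of all transcripts were higher and 1.4% lower. DESeq2 called 0 members, and 0.397% of all transcripts as higher and 0.912% as lower in L. The smallest unadjusted p of any member was 0.119 in the edgeR fit. The p-values measure the spread between these cows, and 3 against 3 libraries cannot give an exact permutation p below 0.1.

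The fold changes leaned toward L, and this rested on 1 library. With all 6 oocytes the members' median log2 fold change of L over M/G was 0.48, with an interquartile range of 0.28 to 0.64, and 263 of 287 were above 0, while the median of all transcripts tested was 0.11. Without M/G 1 the members' median was 0.02 and 152 of 287 were above 0, and the median of all was 0.04. With all 6 libraries, 13 members (4.53%) had every L oocyte above every M/G oocyte in TMM-scaled CPM, against 4.03% of all transcripts, and 0 members had every L oocyte below, against 2.09%. A share of 4.53% is near that of all transcripts. M/G 1 was the lowest of the 6 oocytes in TPM for 281 of the 287 members. Few members could therefore have every L oocyte below every M/G oocyte, and nothing is read from that 0. Without M/G 1 there were 13 members (4.53%) with every L oocyte above both M/G oocytes, against 5.44% of all transcripts, and 15 (5.23%) with every L oocyte below, against 7.44%.

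**Figure D4:**
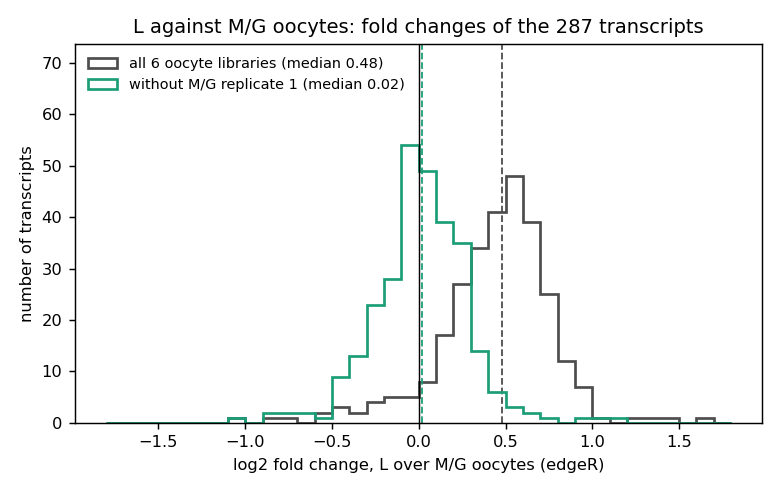
Number of transcripts (vertical axis) by log2 fold change of L over M/G oocytes from the edgeR fit (horizontal axis), for the 287 transcripts with all 6 oocyte libraries (dark line) and without the M/G 1 oocyte (green line). Dashed lines are the medians, 0.48 and 0.02, and the solid line marks no difference.

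The member with the smallest p among those higher in L was ENSBTAT00000056494.3 (4215 nt), at 492, 240 and 380 TPM in L and 39.2, 232 and 264 TPM in M/G oocytes. Its log2 fold change was 0.81 in edgeR (adjusted p = 1) and 0.68 with a standard error of 0.61 in DESeq2. In TPM the lowest L oocyte lay below the highest M/G oocyte. ENSBTAT00000084880.1 (4138 nt) came next, at 180, 231 and 174 TPM in L and 9.81, 113 and 162 TPM in M/G oocytes, with an edgeR log2 fold change of 0.95 (adjusted p = 1). Every L value of this transcript was above every M/G value.

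Among members lower in L, ENSBTAT00000009600.5, described above as keeping its TPM in M/G 1, had the smallest p, with a log2 fold change of -1.06 (edgeR, adjusted p = 1). Without M/G 1 its log2 fold change was -0.06. ENSBTAT00000078771.1 (1878 nt) had 165, 108 and 174 TPM in L and 122, 187 and 141 TPM in M/G oocytes and a log2 fold change of -0.75 (edgeR, adjusted p = 1), or -0.14 without M/G 1. Both therefore owed most of their difference to the oocyte in which the rest of the set was low.

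In the fit without M/G 1, edgeR again gave 0 members with an adjusted p under 0.05, as for all transcripts (0% in each direction). At an unadjusted p under 0.05 there was 1 member higher in L, ENSBTAT00000001646.6, where 0.857% of all transcripts were higher. There were 3 lower in L, ENSBTAT00000064600.2, ENSBTAT00000073470.1 and ENSBTAT00000015654.6, where 0.739% were lower. These 4 were picked out after their values were seen, their smallest unadjusted p was 0.0219, and their adjusted p was 1 in the edgeR fit.

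In cumulus cells the set left traces that varied from library to library. More than 3 counts were found for 111, 179 and 88 members in the L 1, L 2 and L 3 cumulus libraries and for 74, 100 and 177 members in M/G 1, M/G 2 and M/G 3. The summed level of the set, as a percentage of the median sum in the 5 oocytes other than M/G 1, was 0.600, 1.35 and 0.383% in the L libraries and 0.461, 0.888 and 0.928% in the M/G libraries. L 2 and M/G 3 had the most members above 3 counts. They also had the most transcripts of any kind above that level, 19263 and 20738 against 12321 to 14919 in the other 4, with total counts of 6549714 and 8822935 that were not the highest. The low median of each member in these libraries follows from the rule.

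Few members were traced in every library. Of the 287, 58 had at most 3 counts in all 6 cumulus libraries, 38 had more in 1 library, 50 in 2, 55 in 3, 30 in 4, 30 in 5 and 26 in all 6. The median was 0 for 120 members, and 41 had no count in any cumulus library. For the 58 below the floor throughout, the oocyte median was at least 6.01-fold to 9141-fold above the floor (median bound 814-fold), and the lowest bound belonged to ENSBTAT00000083483.1, the shortest. For the 26 found in every library it was 50.6-fold to 390-fold above the cumulus median, with a median of 74.5-fold.

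Single high values were common. There were 84 members with at least 10 TPM in some cumulus library, of which 64 had no count in another. In 136 members the highest cumulus library passed 2% of the oocyte median, although the median over the 6 did not. Values of 100 TPM or more occurred in 9 members, 8 of which were at most 400 nt long. In the L 3 and M/G 2 libraries the 3 highest members gave 56.7 and 56.8% of the summed trace, and in the other 4 libraries between 20.5 and 30.4%.

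The highest cumulus value of any member was 344 TPM, for ENSBTAT00000079113.1 (222 nt) in M/G 2, from 181 counts. In the other cumulus libraries this transcript was at 0, 31.0 and 0 TPM in the L group and at 0 and 107 TPM in M/G 1 and M/G 3. ENSBTAT00000074478.1, the member of 225 nt among the 10 most abundant, varied in a like way, with 0, 282 and 1.55 TPM in the L and 0, 298 and 10.4 TPM in the M/G libraries. Both ranged from no count to over 200 TPM between cumulus libraries of the M/G group. ENSBTAT00000053587.3 (273 nt), in contrast, was found in every cumulus library, at 88.4, 67.2 and 53.9 TPM in L and 6.16, 71.7 and 116 TPM in M/G, or 1.55% of its oocyte median.

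The 3 members closest to the cumulus limit were 762 to 2099 nt long. ENSBTAT00000081792.1 (2099 nt) had 2.60, 1.13 and 1.34 TPM in the L and 25.2, 7.32 and 4.51 TPM in the M/G cumulus libraries, against an oocyte median of 180 TPM. ENSBTAT00000065404.2 (762 nt) had 20.6, 32.6 and 0.856 TPM in L and 0, 2.13 and 19.2 TPM in M/G. ENSBTAT00000015733.6 (948 nt) had 11.1, 4.52 and 1.25 TPM in L and 0, 0.874 and 6.16 TPM in M/G, and its ratio was 1.89%. In the first every M/G value was above every L value, although edgeR did not call it, and in the other members the groups overlapped. Of the 2 longest members, ENSBTAT00000001190.6 passed 3 counts in all 6 cumulus libraries, at 0.890 to 12.0 TPM, and ENSBTAT00000033913.5 was found in L 2 and M/G 3 only, at 5.05 and 12.3 TPM.

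**Figure D5:**
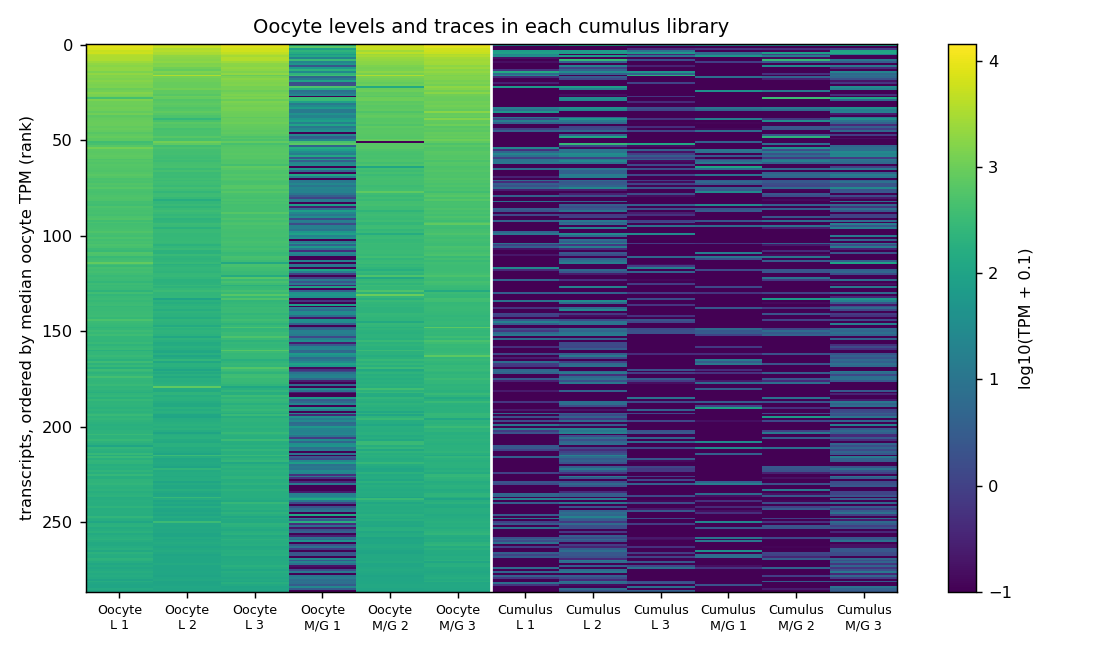
Heat map of log10(TPM + 0.1) for the 287 transcripts (rows, ordered by median oocyte TPM) in the 6 oocyte and 6 cumulus libraries (columns, separated by a white line). The traces in cumulus cells are scattered over all ranks of oocyte level, with 179 and 177 transcripts above 3 counts in the L 2 and M/G 3 columns and 74 to 111 in the other 4.

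The rule restricts both the cumulus and the oocyte levels of the members, so the correlations between them are given as a description only. Spearman's rho over the 287 transcripts between a cumulus library and the median level of the same 5 oocytes lay between 0.042 and 0.180 in the 6 cumulus libraries. For the 3 cows with both libraries, rho between the cumulus cells and the oocyte of the same cow was 0.064 for cumulus L 3 with oocyte L 2, 0.153 for cumulus M/G 2 with oocyte M/G 3 and 0.274 for cumulus M/G 3 with oocyte M/G 1, within the range of 0.019 to 0.289 over all pairs. Each of the 6 cumulus libraries had its highest rho with the M/G 1 oocyte, at 0.171 to 0.289. In that oocyte the 100 TPM minimum left 266 members unrestricted. Its 10 highest transcripts also took 70.8% of TPM, within the 33.9 to 73.7% of the cumulus libraries. The part of either in these rho values was not tested. Between cumulus libraries rho ran from 0.241 to 0.673, with the highest value between L 2 and M/G 3, which shared 151 members above 3 counts. These sparse values are descriptions across transcripts.

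In total the traces did not separate the groups. The set made up 0.134 ± 0.0878% of TPM in L cumulus cells and 0.131 ± 0.0447% in M/G cumulus cells (mean ± SD, n = 3 each), and the groups overlapped. The expression filter (an FPKM over 1 in at least 1 cumulus library) left 219 members in the cumulus test, and the other 68 were too low. A member could pass through 1 high library, so these 219 are not a fair sample of the set.

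With edgeR 0 of the 219 had an adjusted p under 0.05, as for all 23699 transcripts tested (0% in each direction). At an unadjusted p under 0.05 there were 4 members higher in L and 3 lower, and of all transcripts 0.772% were higher and 0.755% lower. Each of the 7 had no count in any library of the other group, so it passed the filter only through the group in which it was high, and nothing is read from their number. The 4 higher in L were ENSBTAT00000073171.1, ENSBTAT00000077422.1, ENSBTAT00000084789.1 and ENSBTAT00000078818.1. The 3 lower were ENSBTAT00000066644.1, ENSBTAT00000063866.2 and ENSBTAT00000001646.6, and all 7 were named after their values were seen.

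DESeq2 called 3 of these members as higher in L and 0 as lower, and of all transcripts it called 0.574% as higher and 0.207% as lower. The limit on how members passed the filter holds for these calls too. ENSBTAT00000073171.1 (465 nt) had 25.0, 49.6 and 168 counts in the L cumulus libraries and 0 in every M/G library, with a DESeq2 adjusted p of 0.00154 and an edgeR adjusted p of 1.00. ENSBTAT00000084789.1 (740 nt) had 89.3, 33.2 and 14.5 counts in L and none in M/G, with a DESeq2 adjusted p of 0.0202. ENSBTAT00000078818.1 (1073 nt) had 54.0, 32.8 and 42.0 counts in L and none in M/G, with a DESeq2 adjusted p of 0.00992. For all 3 every L cumulus library held some counts and every M/G library held none.

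The other unadjusted calls were carried by fewer libraries. ENSBTAT00000077422.1 (633 nt) had 107, 0 and 168 counts in the L cumulus libraries and none in M/G, and its L 3 count equalled that of ENSBTAT00000073171.1 to 1 decimal. ENSBTAT00000066644.1 (2475 nt) had 515, 0 and 114 counts in the M/G libraries and none in L, and ENSBTAT00000063866.2 (789 nt) had 914, 4.9 and 0. ENSBTAT00000001646.6 (3069 nt), the member that was higher in L oocytes by its unadjusted p in the fit without M/G 1, had 664 counts in the M/G 2 cumulus library and none in the other 5. Kallisto divides reads that match several similar transcripts, so the count of any single transcript here is uncertain where a close copy exists.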

How the data were processed

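RNA was sequenced from single MII oocytes and from cumulus cells, with 3 libraries per group and cell type. The authors trimmed the reads with fastp and quantified them on Ensembl bovine cDNA with Kallisto 0.44.0, and left out libraries with few exonic reads. The deposited tables give, for each transcript, an estimated count, which is not normalized, and a TPM value that the authors obtained by scaling counts for effective length and library total. Effective length was length minus 199 nt for 37368 transcripts in every oocyte library but for 9305 to 17862 in cumulus libraries, so that the members' cumulus effective lengths were 0.827 to 1.64 times those in oocytes. The reason for this is not given in the sources used here, and it moves a cumulus TPM by up to that factor.

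Members were found from TPM. Estimated counts were rounded and tested for L against M/G in each cell type apart with edgeR 4.0.16 (TMM, quasi-likelihood F test, R 4.3.3) over transcripts with an FPKM over 1 in at least 1 of 6 libraries, 23686 in oocytes and 23699 in cumulus cells, with adjusted p under 0.05 as the threshold. The authors' methods name DESeq2, which was run here in version 1.42.0 as an alternative, as was limma-voom 3.58.1, and the scripts were tested on simulated data. The analysis had no gene names, so the planned marker genes were not used. Log2 TPM ratios used a pseudocount of 1. A count of 3 or fewer was taken as the detection floor, 0.0943 to 0.372 CPM in oocytes and 0.253 to 0.469 CPM in cumulus libraries. It was applied per library, and the bounds use the library with the highest floor.

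The members, the rule for named transcripts and the comparisons were chosen with earlier results of these data known. The rule named the 10 members highest in oocytes, the 3 lowest and 3 highest in CV and in M/G 1, the 2 smallest p-values in each direction, the 3 highest cumulus ratios, the highest cumulus value, the 2 longest and shortest, and the 2 transcripts on each side of each limit. Ties at 0 in M/G 1 were broken by the median over 6 oocytes, a choice made after the data were seen. Libraries of both groups carry numbers 1 to 3 in their titles, but come from different cows, and same-numbered libraries did not deviate together.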

Additional observations from a re-analysis of the deposited data

Results flagged for a closer look

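Among 8 measures of the set, each read over the 6 libraries of a cell type, 4 had a single library far from the rest, and in each it was the M/G 1 oocyte. The set made up 1.03% of its TPM against 11.6 to 17.8% in the other oocytes, and 1.83% of its estimated counts against 9.88 to 13.3%. In M/G 1, 236 members had more than 3 counts, against 286 to 287 in the others, and the median log2 ratio of the members to the other oocytes was -4.95, against -0.43 to 0.40. The members were chosen with a rule that uses these oocyte values and lets 1 library fall short, so the distances are a description and not a test. In groups of values chosen without regard to them, chance alone passes the limit used here in about 1 in 20, and the 4 measures come from the same library and are not independent. Their cause was not tested.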

How the results depend on the processing

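The number of members was 584 at 50 TPM, 134 at 200 TPM, 20 when all 6 oocytes had to pass, 128 when counts per kilobase scaled by TMM replaced TPM (127 of them in the set), 234 and 422 at cumulus limits of 0.01 and 0.05, and 229 with means in place of medians. Leaving out 1 library at a time gave 275 to 413 members, with 413 without the M/G 1 oocyte. The median length was 1741.5 nt at 50 TPM, 1338.5 nt at 200 TPM and 1319 nt by effective length. The median log2 ratio in M/G 1 was -3.07 with TMM-scaled CPM and -3.49 without the 10 highest transcripts, and, by alternatives chosen after seeing the data, -4.13 without the highest transcript and -3.35 from count shares. Leaving out another oocyte gave -4.79 to -5.01. The median CV was 52.5% over 6 oocytes, 22.6% without M/G 1, 47.8% from TMM-scaled CPM and 15.1% scaled to the summed members without M/G 1 (chosen after seeing the data), with a range of 22.6 to 59.0% when 1 oocyte was left out. The median SD of log2(TPM + 1) was 2.01. The median cumulus share was 0.128%, 0.257% without the 10 highest transcripts of each library, 0.0774% for members over 300 nt and 0.104 to 0.153% without 1 library. Between L and M/G oocytes DESeq2 called 310 transcripts and edgeR and limma-voom 0, and no alternative called a member. The members' median log2 fold change of 0.48 ranged from 0.02, without M/G 1, to 0.90 with 1 library left out. Between cumulus groups DESeq2 called 185 transcripts and 3 members, limma-voom 3 transcripts, edgeR without the FPKM filter 3, and edgeR without 1 library 0 to 17, with 17 without L 2. None of these edgeR or limma-voom calls was a member. The correlation of same-numbered libraries' deviations was -0.190 to 0.0804 in oocytes and -0.288 to -0.00639 in cumulus cells. These values gave no sign of pairing by number, but 3 libraries per group are too few to exclude it. With the replicate block the oocyte fit called 0 transcripts and 0 members at a median log2 fold change of 0.91, and the cumulus fit called 1 transcript and 0 members. Depth limits the lost and trace values, since 3 counts correspond to 0.372 CPM in the M/G 1 oocyte and to 0.253 to 0.469 CPM in the cumulus libraries.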
